A study of Homo sapiens with 4 samples.

Results

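The genes described are 10 transcription factors of mesenchyme and lateral mesoderm: HAND1, HAND2, PITX1, TBX3, FOXF1, PRRX1, TWIST1, SNAI2, ISL1 and MEOX1. They were chosen by name, and they are 10 of the 23364 genes listed in at least 1 of 4 tables of single-cell counts. All 10 were listed in both blastoid tables, 9 passed the filter on low counts in each comparison of summed counts, and MEOX1 did not. All cells derive from KhES1, a human embryonic stem cell line in established use. Samples hESC 1 and hESC 2 are KhES1 cells grown in mTeSR-1 medium on Matrigel. Samples blastoid 3 and blastoid 4 are blastoids, aggregates meant to model the blastocyst, which were formed from the same line with the inhibitor Y27632, embedded in a PNIPAAm-β-PEG hydrogel with serum-containing DMEM and then kept in iBlastoid medium. The titles of the blastoid samples name day 0 and their tables day 9, so the groups were taken from the descriptions. No label says that the samples of a group came from separate cultures, so the p-values measure only the spread between these samples, which may be technical.

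HAND1, HAND2 and TWIST1 are basic helix-loop-helix factors, which bind DNA in pairs with partners such as TCF3, TCF4 and TCF12 and are held back by the ID proteins, which lack the part that binds DNA. PITX1, PRRX1, ISL1 and MEOX1 are homeobox factors, TBX3 is a T-box factor, FOXF1 a forkhead factor and SNAI2 a zinc finger repressor. In the embryo HAND1 and TBX3 are known from extraembryonic tissue as well as from the heart and limbs, PITX1 from the hindlimb and the pituitary, PRRX1 and TWIST1 from mesenchyme, SNAI2 from cells leaving an epithelium, ISL1 from amnion, heart progenitors and motor neurons, FOXF1 from splanchnic mesoderm, and MEOX1 from somites.

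Cells were kept with at least 500 genes, which left 2265, 3175, 2289 and 1951 cells in hESC 1, hESC 2, blastoid 3 and blastoid 4, with a median of 5793, 4996, 6232 and 8828 UMIs (unique molecular identifiers, each counting 1 captured molecule). The samples of a group shared cell barcodes, 1317 between the hESC samples and 1035 between the blastoid samples, against 6 to 14 between samples of different groups. Of these, 23 barcodes were kept in both hESC samples and 0 in both blastoid samples. All 1035 barcodes shared by the blastoids were kept cells of blastoid 4 whose copy in blastoid 3 had fewer than 500 genes, and the comparisons were also computed without them. The stem cell samples held 3371 and 3504 CPM (counts scaled to a library of 1000000 UMIs) over 6 pluripotency genes, and the blastoids 460 and 521 CPM. Of the lineages a blastocyst holds beside the epiblast, 6 trophoblast markers summed to 50.4 and 20.5 CPM in blastoid 3 and blastoid 4, with ERVFRD-1 at 0 in blastoid 4, and 6 hypoblast and endoderm markers to 6.3 and 3.42 CPM, with FOXA2 at 0 in both. In hESC 1 and hESC 2 the trophoblast markers summed to 12.3 and 15.6 CPM and the hypoblast and endoderm markers to 2.08 and 3.33 CPM.

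The promoters of 4 factors are shown because these genes span the patterns described: HAND1 was present in blastoid cells with and without amnion-like genes, PITX1 and HAND2 mainly in cells without them, and ISL1 was higher in cells with them. The sequences are from RefSeq (GRCh38.p14), run from 250 bases before to 50 bases after the start, and are written along the gene's strand. The letters GATA, or TATC where the motif lies on the other strand, are in capitals. HAND1 is at chr5:154478178-154478477 (minus strand), PITX1 at chr5:135034179-135034478 (minus strand), HAND2 at chr4:173530180-173530479 (minus strand) and ISL1 at chr5:51383198-51383497 (plus strand).
HAND1: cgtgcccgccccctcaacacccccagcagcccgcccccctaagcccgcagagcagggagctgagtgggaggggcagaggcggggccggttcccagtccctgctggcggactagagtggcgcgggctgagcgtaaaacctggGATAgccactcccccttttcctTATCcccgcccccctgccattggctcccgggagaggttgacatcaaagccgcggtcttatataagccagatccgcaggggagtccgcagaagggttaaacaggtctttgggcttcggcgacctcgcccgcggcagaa
PITX1: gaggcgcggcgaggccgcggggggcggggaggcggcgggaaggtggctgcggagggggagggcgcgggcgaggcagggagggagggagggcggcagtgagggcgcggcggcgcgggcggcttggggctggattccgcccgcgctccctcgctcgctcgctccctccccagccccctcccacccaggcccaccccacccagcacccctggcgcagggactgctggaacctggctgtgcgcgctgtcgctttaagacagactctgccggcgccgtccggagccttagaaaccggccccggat
HAND2: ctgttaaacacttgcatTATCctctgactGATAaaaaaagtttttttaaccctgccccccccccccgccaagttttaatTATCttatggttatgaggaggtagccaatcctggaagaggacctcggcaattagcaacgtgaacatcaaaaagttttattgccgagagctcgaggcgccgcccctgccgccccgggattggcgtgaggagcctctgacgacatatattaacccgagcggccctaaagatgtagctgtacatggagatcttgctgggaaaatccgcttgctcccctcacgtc
ISL1: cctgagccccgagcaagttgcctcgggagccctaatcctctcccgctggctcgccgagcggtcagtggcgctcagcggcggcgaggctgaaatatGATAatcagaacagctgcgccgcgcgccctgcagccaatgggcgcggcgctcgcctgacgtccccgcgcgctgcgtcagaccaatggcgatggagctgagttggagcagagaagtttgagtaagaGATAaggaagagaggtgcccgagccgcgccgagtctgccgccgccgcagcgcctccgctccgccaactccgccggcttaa

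The promoter table matched 5 of the 10 factors, with PRRX1 as the fifth. The HAND1 window held 2 GATA matches, HAND2 3, ISL1 2, PRRX1 1 and PITX1 0, where 49.7% of the 35116 promoters in the table held at least 1. The E-box CANNTG, the class of site that basic helix-loop-helix factors bind and a motif that reads the same on both strands, was found 1 time each in the HAND2 and ISL1 windows and 0 times in those of HAND1, PITX1 and PRRX1, against 68.7% of all promoters with a match. The PITX1 window was 77% G and C, that of HAND2 50.3%, and the median of all promoters 58.7%. A match describes these letters only.

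In the annotation of GRCh38 (GENCODE version 29), HAND1 lies at chromosome 5, 154474972 to 154478264, and PITX1 on the same chromosome at 135027735 to 135034813. HAND2 lies at chromosome 4, 173524969 to 173530229, and overlaps HAND2-AS1 on the other strand, while PITX1 overlaps C5orf66 on the other strand. Whether counting used strand is not given in the sources used here, so reads of these overlapping pairs may have been split between the partners.

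Stem cells and blastoids were compared first, to see which factors the differentiation brought with it. The stem cell tables held almost no UMI of any factor, and the blastoids held 9 of the 10 at levels well above counting error. HAND1, HAND2, PITX1, TBX3, FOXF1, ISL1 and MEOX1 were missing from both hESC tables. PRRX1 had 4 UMIs in hESC 2 and was missing from hESC 1, SNAI2 had 6 UMIs in hESC 1 and was missing from hESC 2, and TWIST1 had 5 and 4 UMIs. The stem cell tables list few genes found in fewer than 3 barcodes, so a missing gene was taken to have had up to 2 counts per table. Folds against missing genes are lower bounds set by the upper 95% limit of that count (9.15 counts over both tables).

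HAND1 was at 653 CPM in blastoid 3 and 803 CPM in blastoid 4, at least 2235-fold higher than in the stem cells. PITX1 reached 437 CPM in blastoid 3 and 526 CPM in blastoid 4 (at least 1478-fold higher). TBX3 reached 302 and 237 CPM (at least 827-fold higher). Both blastoids lay far above the stem cell limit of 0.326 CPM for each of these genes.

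HAND2, the partner gene of HAND1 in heart and limb, differed most between the blastoids among the called factors, at 187 CPM in blastoid 3 and 91.9 CPM in blastoid 4, and was at least 428-fold higher than in the stem cells. FOXF1 was at 25.8 and 18.2 CPM (at least 67.6-fold higher) and ISL1 at 11.9 and 14.6 CPM (at least 40.6-fold higher). MEOX1 rested on 12 and 11 UMIs, 0.726 and 0.602 CPM, and was not tested.

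The 3 factors with stem cell counts can be given as fitted changes. PRRX1 went from 0 and 0.259 CPM in the stem cells to 374 and 267 CPM in the blastoids, a log2 fold change of 11.06 ± 0.44 (SE, 2 samples per group; edgeR adjusted p 5.05e-06). SNAI2 went from 0.473 and 0 CPM to 112 and 91.7 CPM, by 8.84 ± 0.46 (SE, 2 samples per group; edgeR adjusted p 1.17e-05). TWIST1 went from 0.394 and 0.259 CPM to 54.5 and 54.2 CPM, by 7.37 ± 0.23 (SE, 2 samples per group; edgeR adjusted p 3.20e-06). With so few stem cell counts the groups could hardly overlap for these 3 genes, so their separation adds nothing to the levels.

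All 9 factors tested were called higher in the blastoids (edgeR, adjusted p under 0.05), where 27.3% of the 16368 genes tested were called higher. With almost no stem cell counts the factors passed the filter through the blastoids, so they could hardly be called lower. The count of calls therefore adds nothing to the levels given above. Over all genes tested the log2 fold changes had a median of 0.05. Summed counts cannot tell a larger share of cells with a factor from more RNA per cell, so detection per cell is given next.

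HAND1 was the factor found in most blastoid cells. It had a UMI in 86.7% of cells in blastoid 3 (exact 95% interval 85.3% to 88.1%) and 90.3% in blastoid 4 (88.9% to 91.5%). To set depth aside, 2000 UMIs were drawn at random from each cell, called thinning here, which left 2181 and 1909 cells, and HAND1 was then found in 67.7% and 70.8% of them. The exact intervals cover counting error only.

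After thinning, PITX1 was found in 49.9% of cells of blastoid 3 and 47.9% of blastoid 4, PRRX1 in 47.8% and 36.7%, and TBX3 in 42.8% and 36.3%. HAND2 was found in 30.2% and 15.8% of thinned cells, SNAI2 in 20.5% and 15.7%, and TWIST1 in 10.1% and 8.7%. FOXF1 was found in 5.64% and 3.14%, ISL1 in 1.6% and 2.15%. Without thinning the shares were larger, for example 65.4% and 60.6% for PITX1, 71.6% and 69.6% for TBX3, and 15.1% and 13.9% for FOXF1.

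The blastoid cells were then split by amnion-like genes. Amnion is the thin epithelium that encloses the embryo, and a cell counted as having amnion-like genes when at least 2 of TFAP2A, TFAP2B, GABRP, VTCN1 and KRT7 had a UMI. This held for 366 cells (16%) of blastoid 3 and 648 cells (33.2%) of blastoid 4, and for 12 and 5 cells of the hESC samples. Near the limit, 246 and 195 cells had 1 of the 5 genes, and 98 and 104 had 2. The median depth with and without amnion-like genes was 6756 and 6141 UMIs in blastoid 3 and 9424.5 and 8555 UMIs in blastoid 4. Cells with these genes also had fewer counts of cycling genes, 1221 and 979 CPM summed over 5 genes against 2422 and 2024 CPM without them, and the part of this in the results was not tested.

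The factors fell into 3 patterns along this split. HAND1 and TBX3 were lower by less than 2-fold in cells with amnion-like genes, PITX1, PRRX1, HAND2, FOXF1, SNAI2 and TWIST1 were lower by 4.62-fold or more in each sample, and ISL1 was higher. With the sample as a term of the fit, 8 of the 9 factors tested were called lower and 1 higher in cells with amnion-like genes (edgeR, adjusted p under 0.05), where 24.3% of the 14856 genes tested were called lower and 25.8% higher, 50.1% in all. The factors' median log2 fold change was -2.54 and that of all genes -0.02, and 7 of the 9 were past 1 in size, against 23.5% of all genes.

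HAND1 was at 454 CPM in cells with and 709 CPM in cells without amnion-like genes of blastoid 3, and at 598 and 945 CPM in blastoid 4. The log2 fold change was -0.65 ± 0.05 (SE, n = 2 samples, edgeR adjusted p 2.14e-09). TBX3 was at 251 and 319 CPM in blastoid 3 and at 166 and 285 CPM in blastoid 4, a change of -0.57 ± 0.08 (SE, n = 2 samples, edgeR adjusted p 1.11e-05). For both genes the cells with amnion-like genes were lower in each sample. The calls rest on the pairing of both sets within a sample, since without that term the adjusted p was 0.0508 for HAND1 and 0.0969 for TBX3 (edgeR).

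PITX1 was the factor most reduced in cells with amnion-like genes, at 14.4 CPM against 533 CPM in blastoid 3 and 41.3 CPM against 798 CPM in blastoid 4. These are 37.0-fold and 19.3-fold differences, with a log2 fold change of -4.52 ± 0.12 (SE, n = 2 samples, edgeR adjusted p 2.55e-16). PRRX1 was at 19.6 and 454 CPM in blastoid 3 and at 25 and 403 CPM in blastoid 4, a change of -4.20 ± 0.10 (SE, n = 2 samples, edgeR adjusted p 9.70e-17). No cell set with amnion-like genes came near the level without them.

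HAND2 was at 11.1 CPM with and 227 CPM without amnion-like genes in blastoid 3 and at 15.0 and 135 CPM in blastoid 4, a log2 fold change of -3.60 ± 0.15 (SE, n = 2 samples, edgeR adjusted p 3.65e-13). HAND1 and HAND2, which bind similar sites, thus moved by very unequal amounts across the same cells. FOXF1 was at 2.96 and 31.1 CPM in blastoid 3 and at 2.00 and 27.4 CPM in blastoid 4, a change of -3.62 ± 0.23 (SE, n = 2 samples, edgeR adjusted p 1.28e-10).

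SNAI2, a repressor of epithelial cadherin, was at 15.5 and 134 CPM in blastoid 3 and at 27.8 and 129 CPM in blastoid 4, a log2 fold change of -2.50 ± 0.14 (SE, n = 2 samples, edgeR adjusted p 1.33e-11). TWIST1 was at 10.7 and 64.6 CPM in blastoid 3 and at 13.5 and 77.5 CPM in blastoid 4, a change of -2.54 ± 0.13 (SE, n = 2 samples, edgeR adjusted p 5.54e-12). ISL1 alone among the 9 was higher in cells with amnion-like genes, at 33.6 against 7.86 CPM in blastoid 3 and 29.0 against 7.84 CPM in blastoid 4. Its change was 1.98 ± 0.16 (SE, n = 2 samples, edgeR adjusted p 3.59e-09). MEOX1 had 3 and 6 UMIs with and 9 and 5 UMIs without amnion-like genes, too few for a comparison.

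**Figure D1:**
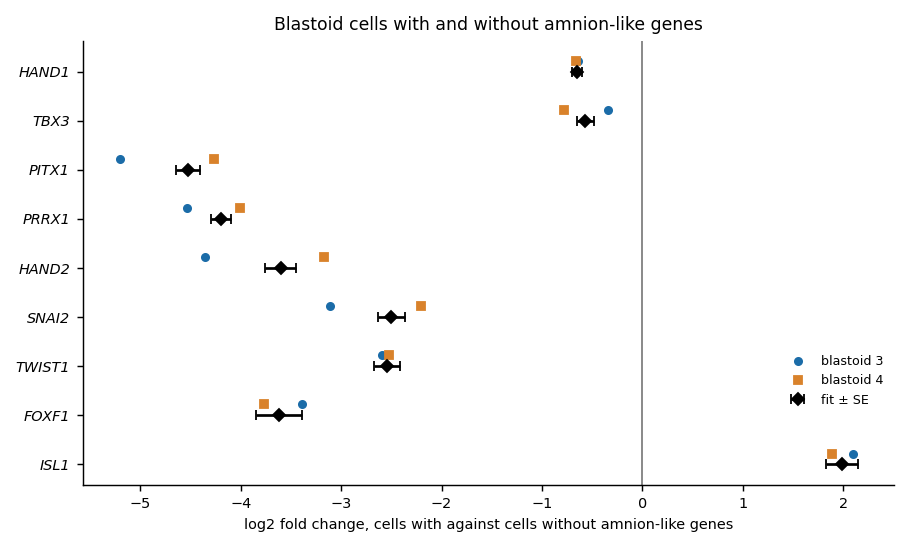
Log2 fold change of each factor in blastoid cells with against cells without amnion-like genes, from UMIs summed per sample. Circles and squares are blastoid 3 and blastoid 4, diamonds the fit with its standard error; HAND1 and TBX3 lie between -1 and 0, 6 factors lie below -2 and ISL1 near 2.

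Cells called as doublets bear on the size of these differences. Of the 648 cells with amnion-like genes in blastoid 4, 22 were called as doublets, and 6 of the 366 in blastoid 3. Without the called doublets the log2 fold change of PITX1 was -5.32, that of PRRX1 -4.81 and that of HAND2 -4.11. Without the barcodes shared by the blastoids the same 3 values were -5.38, -4.32 and -4.30. Those of HAND1, TBX3, FOXF1, SNAI2, TWIST1 and ISL1 were then -0.71, -0.53, -3.00, -2.91, -2.78 and 2.02, and all 9 calls were kept (edgeR).

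Detection per cell was compared next. After thinning to 2000 UMIs, which left out 14 and 94 shallower cells with and without amnion-like genes in blastoid 3 and 5 and 37 in blastoid 4, PITX1 was found in 1.99% of cells with amnion-like genes (exact interval 0.803% to 4.05%) and 59.2% without them (56.9% to 61.4%) in blastoid 3. In blastoid 4 the shares were 4.35% (2.91% to 6.23%) and 70.0% (67.4% to 72.5%). The pluripotent-gene cells of the blastoids were used as a background. These were 79 and 91 cells with 4 or more of 6 pluripotency genes and fewer than 2 amnion-like genes. Their median depth was 9991 and 13707 UMIs. There PITX1 was found in 7.6% and 10% of thinned cells, so its share in cells with amnion-like genes was not above this background. Before thinning its UMIs lay in few pluripotent-gene cells, 36 UMIs in 11 cells and 65 UMIs in 15 cells. Whether they came from stray RNA, mixed barcodes or expression was not tested. The same held for PRRX1, with 3.12% and 4.51% in cells with amnion-like genes against 7.6% and 7.78% in pluripotent-gene cells.

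HAND1 and TBX3 stood above that background in both sets. HAND1 was found in 52.6% of thinned cells with amnion-like genes (47.2% to 57.9%) and 70.6% without them (68.5% to 72.7%) in blastoid 3, and in 62.8% (59.0% to 66.6%) and 74.8% (72.3% to 77.2%) in blastoid 4. The pluripotent-gene cells gave 17.7% and 10%. Without the shared barcodes the HAND1 shares of blastoid 4 were 62.9% and 80.7%, a difference of -17.8 instead of -12.0 percentage points. Unthinned, the HAND1 shares were 83.3% and 87.4% in blastoid 3 and 91.2% and 89.8% in blastoid 4, so that the sign in blastoid 4 turned with depth. TBX3 was found in 35.8% and 44.2% of thinned cells in blastoid 3 and in 26.4% and 41.3% in blastoid 4, with 11.4% and 11.1% in pluripotent-gene cells. Unthinned, the TBX3 shares were 72.1% and 71.5% in blastoid 3, a turn of sign, and 62.0% and 73.3% in blastoid 4.

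The shares of HAND2, SNAI2 and TWIST1 in cells with amnion-like genes were 1.99% each in blastoid 3 and 2.64%, 4.51% and 2.02% in blastoid 4. In pluripotent-gene cells they were 0%, 1.27% and 5.06% in blastoid 3 and 1.11%, 2.22% and 1.11% in blastoid 4, so these values cannot be set apart from background. Without amnion-like genes they reached 35.6%, 24.1% and 11.7% in blastoid 3 and 22.4%, 21.3% and 12.1% in blastoid 4. ISL1 was found in 3.69% of thinned cells with amnion-like genes against 1.2% without them in blastoid 3, and in 3.58% against 1.42% in blastoid 4. These ISL1 shares are low, and pluripotent-gene cells gave 0% (0 to 4.56%) and 2.22% (0.27% to 7.8%), intervals that hold or overlap those of both sets. Unthinned, the ISL1 shares were 16.1% against 4.63% and 18.8% against 5.6%, with 8.86% and 6.59% in the deeper pluripotent-gene cells. Because of the unequal depth and the wide intervals, the shares without amnion-like genes cannot be placed above or below background.

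The fall of the mesenchyme factors came at a low number of amnion-like genes. With 0 of the 5 genes PITX1 was found in 61.7% of thinned cells of blastoid 3 and 72.3% of blastoid 4, with 1 gene in 41.0% and 56.9%, and with 2 genes in 3.26% and 11%. From 3 to 5 genes it stayed between 1.0% and 3.98%. HAND1 went from 72.7% and 77.4% with 0 genes to its lowest share with 2 genes, 37.0% and 50%, and stood at 59.5% and 70.5% with all 5. The share was thus lower at 2 genes than at 3 (60.2% and 61.3%) in both samples, with intervals that overlapped in blastoid 4. The median depth was 6289.5 and 9114.5 UMIs at 2 genes, 6288 and 8258 UMIs at 3 and 10837 and 11019 UMIs at 5, so that cells with 3 genes were not deeper than those with 2. Cells with all 5 were deeper, which thinning of the factor counts does not undo, and the part of depth in their shares was not tested.

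**Figure D2:**
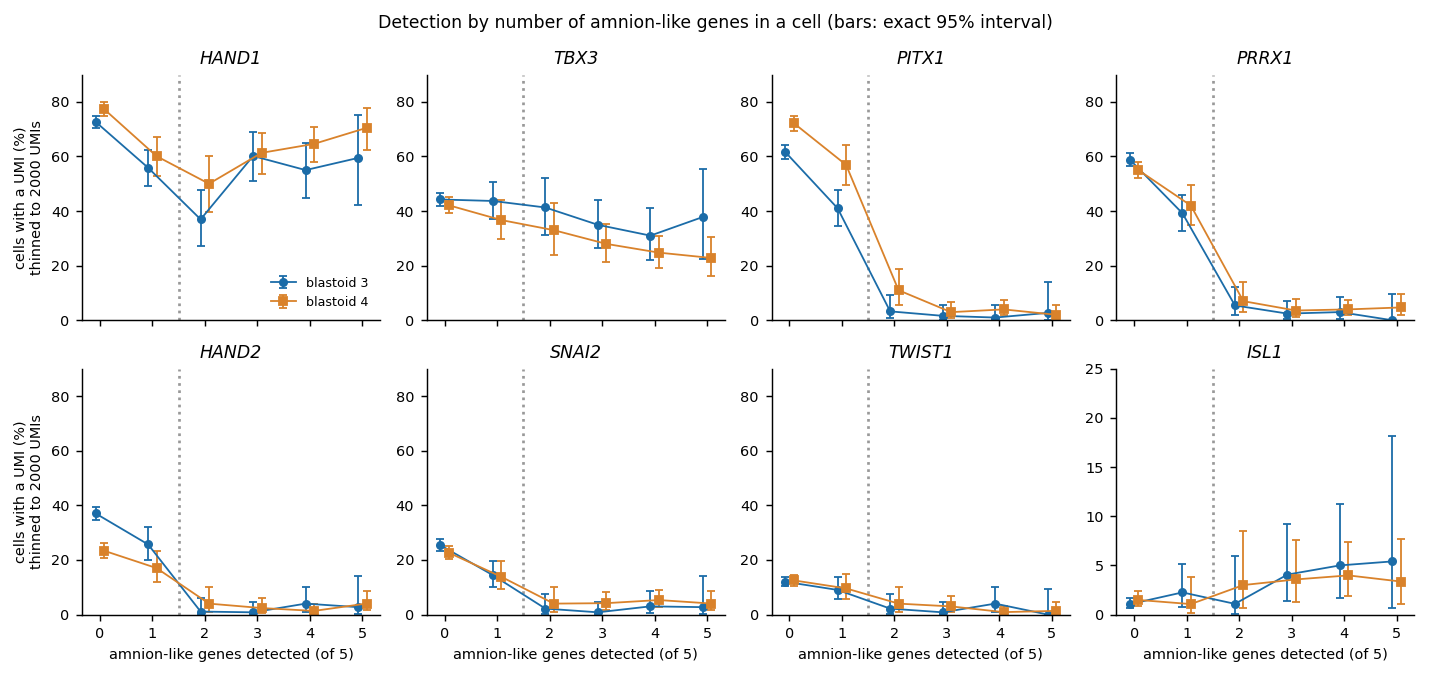
Share of blastoid cells with a UMI of each factor after thinning to 2000 UMIs, against the number of the 5 amnion-like genes detected in the cell, for blastoid 3 (circles) and blastoid 4 (squares) with exact 95% intervals. The dotted line marks the limit of 2 genes; PITX1 drops from 61.7% and 72.3% at 0 genes to 3.26% and 11% at 2, while HAND1 stays at 37.0% or more. The ISL1 panel has its own scale.

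A finer split added matrix genes, with a cell counted as having them when at least 3 of COL3A1, COL1A1, COL1A2, LUM, DCN and POSTN had a UMI. This gave 1117 and 835 cells with matrix genes only, 727 and 377 with neither, 295 and 459 with amnion-like genes only and 71 and 189 with both, beside the pluripotent-gene cells. Cells with matrix genes only and with neither had close median depths (6104 and 5962 UMIs in blastoid 3, 8223 and 8430 in blastoid 4), while cells with both were deeper (9576 and 11224 UMIs). Levels in these sets are CPM of the set's own total, without TMM scaling.

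HAND1 was at 861 and 1132 CPM in cells with matrix genes only and at 711 and 888 CPM in cells with neither, so that the first were higher in each sample. It was lower in cells with both (490 and 554 CPM) and with amnion-like genes only (436 and 542 CPM), and lowest in pluripotent-gene cells (193 and 106 CPM). PITX1 was likewise higher with matrix genes only (656 and 913 CPM) than with neither (539 and 861 CPM) in each sample, and so was PRRX1, at 542 and 466 CPM against 490 and 414 CPM. For these 3 factors the ranges of both sets over the blastoids overlap, and the difference within a sample was not tested.

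TBX3 had another order from HAND1. It was highest in cells with neither marker group, at 447 and 400 CPM. Cells with matrix genes only came next, at 310 and 282 CPM, lower in each sample, and this difference was not tested. Cells with amnion-like genes only gave 257 and 161 CPM and pluripotent-gene cells 118 and 43.4 CPM. FOXF1, like TBX3, was higher with neither (44.7 and 34.1 CPM) than with matrix genes only (29.5 and 29.0 CPM).

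HAND2, SNAI2 and TWIST1 leaned the other way. HAND2 was at 323 and 172 CPM with matrix genes only against 158 and 105 CPM with neither. SNAI2 was at 183 and 169 CPM against 104 and 87.2 CPM, and TWIST1 at 92.4 and 96.4 CPM against 41.7 and 63.7 CPM. Each of the 3 was higher with matrix genes only in both samples. With 2 samples an exact permutation test cannot pass 0.05, and none was run. How often other genes differ between these sets in this way was not computed. ISL1 was highest with amnion-like genes only, at 35.7 and 30.5 CPM, and lowest with matrix genes only, at 6.14 and 7.31 CPM.

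Cells with both marker groups had PITX1 at 30.8 and 81.7 CPM, against 8.43 and 15.2 CPM with amnion-like genes only. In blastoid 4, 17 of these 189 cells were called as doublets, against 5 of the 459 with amnion-like genes only, and in blastoid 3 the numbers were 4 of 71 and 2 of 295. The part of doublets in the PITX1 level was not tested.

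**Figure D3:**
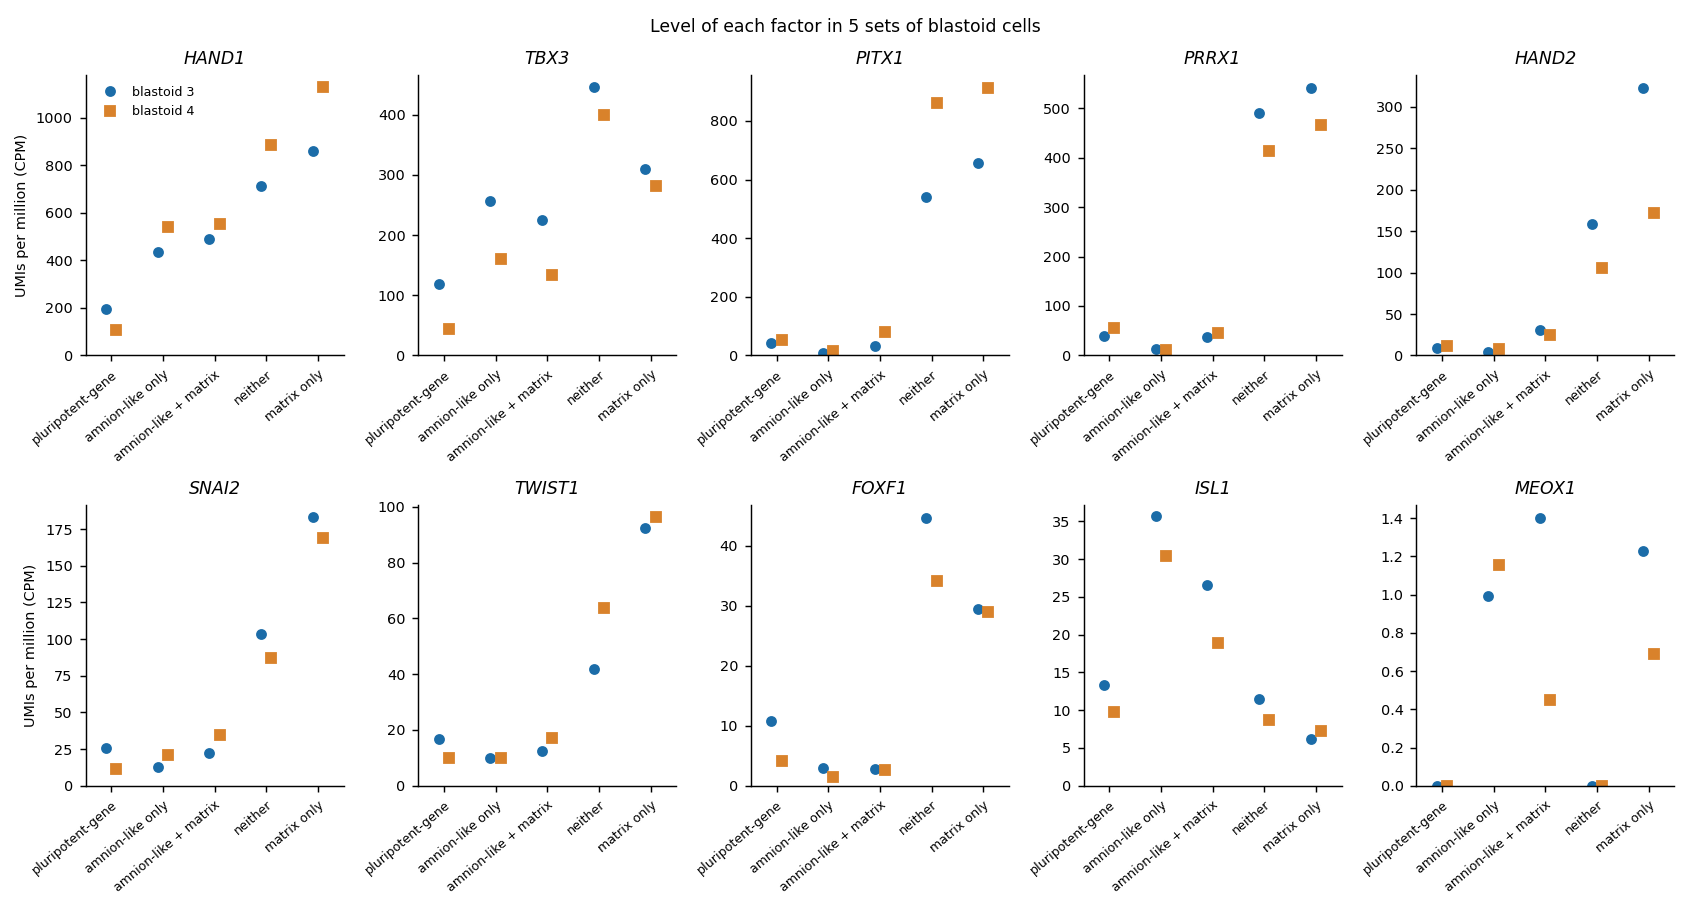
Level of each factor in CPM in 5 sets of blastoid cells, for blastoid 3 (circles) and blastoid 4 (squares); each panel has its own scale starting at 0. TBX3 and FOXF1 are highest in cells with neither marker group, HAND2, SNAI2 and TWIST1 in cells with matrix genes only, and ISL1 in cells with amnion-like genes only.

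Cycling cells, with at least 2 of MKI67, TOP2A, CCNB1, CENPF and UBE2C, made up 1290 of the 1923 and 887 of the 1303 cells without amnion-like genes. Among them PITX1 was found in 60.0% and 69.8% of thinned cells, and in 57.4% and 70.4% of cells that were not cycling. HAND1 was found in 70.4% and 74.4% of cycling cells against 71.1% and 75.8%. SNAI2 was found in 22.8% and 19.7% of thinned cycling cells against 26.8% and 25% of the others, and PRRX1 in 54.3% and 52.1% against 61.0% and 55.4%. In CPM, SNAI2 was at 136 and 113 in cycling cells against 174 and 189 in the others. HAND1 was at 745 and 920 CPM against 829 and 1085 CPM.

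How many factors a single cell held was counted for HAND2, PITX1, PRRX1, FOXF1, TWIST1 and SNAI2, a set taken after their values were seen. Among thinned cells without amnion-like genes, 13.1% in blastoid 3 and 13.9% in blastoid 4 held none of the 6, 33.3% and 37.0% held 2, and 31.7% and 27.1% held 3 or more. Among cells with amnion-like genes 89.5% and 86.2% held none, close to the 86.1% and 86.7% of pluripotent-gene cells. Of the cells with amnion-like genes, 1.42% and 2.64% held 2 or more.

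**Figure D4:**
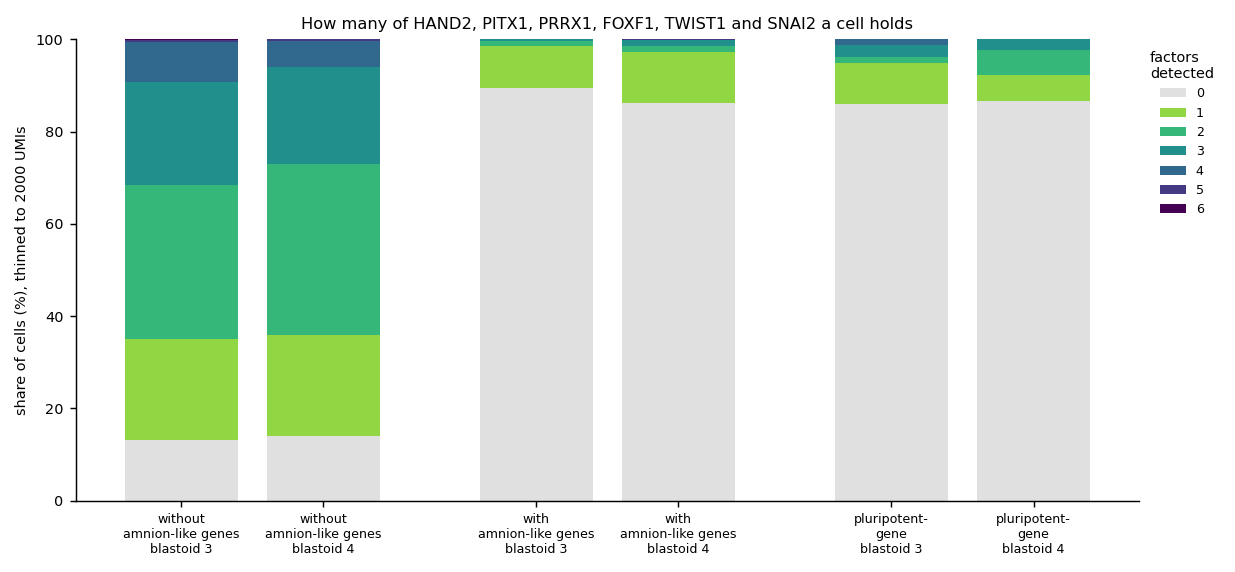
Share of blastoid cells, in percent, that held 0 to 6 of the factors HAND2, PITX1, PRRX1, FOXF1, TWIST1 and SNAI2 after thinning to 2000 UMIs. In cells without amnion-like genes 13.1% and 13.9% held none, against 89.5% and 86.2% with these genes; pluripotent-gene cells are a subset of the first.

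Co-detection was described for the 7 factors found in at least 5% of thinned cells in both blastoids, which leaves out FOXF1, ISL1 and MEOX1 and gives 21 pairs. In cells without amnion-like genes the observed number of cells with both factors was 0.897 to 1.26 times the number expected from the product of their shares. The ratio was above 1 in both samples for 16 pairs and below 1 in both for 0. Without the pluripotent-gene cells, which lack most factors, the range was 0.858 to 1.18, and 13 pairs were above 1 in both samples and 2 below. With these cells kept, 20 pairs were above 1 in both samples after thinning to 4000 UMIs, and 21 without thinning.

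In percentage points the largest gap in blastoid 4 was that of PITX1 by HAND1, while in blastoid 3 the gap of PRRX1 by HAND1 was as large. PITX1 was found in 63.9% of HAND1-positive cells (61.2% to 66.5%) and 47.9% of HAND1-negative cells (43.6% to 52.2%) of blastoid 3, and in 78.0% (75.3% to 80.6%) and 46.1% (40.5% to 51.7%) in blastoid 4. Without the pluripotent-gene cells the shares were 64.3% and 53.8% in blastoid 3 and 78.5% and 59.2% in blastoid 4, a smaller gap in the same direction. PRRX1 was found in 61.1% of HAND1-positive and 45.1% of HAND1-negative cells of blastoid 3 and in 57.2% and 40.8% in blastoid 4, and without the pluripotent-gene cells in 61.7% against 50.4% and 57.6% against 52.5%.

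HAND2 and SNAI2 were each more often found beside PITX1. HAND2 was found in 41.0% of PITX1-positive and 27.8% of PITX1-negative cells of blastoid 3 and in 26.3% and 13.4% in blastoid 4. SNAI2 was found in 28.5% and 17.7%, and in 24.9% and 12.9%. The intervals of positive and negative cells did not overlap in either sample for these pairs, and they cover counting error only. As a ratio to the number expected, PITX1 with SNAI2 (1.18 and 1.17) was further from 1 than PITX1 with HAND1 (1.08 and 1.12). This ratio has a lower ceiling where a factor is found in more cells. HAND1 was found in 70.6% and 74.8%, PITX1 in 59.2% and 70.0%, so the ratios do not rank these pairs. Without the pluripotent-gene cells HAND2 was found in 41.3% of PITX1-positive against 30.9% of PITX1-negative cells, and in 26.5% against 17.1%. SNAI2 was then found in 28.5% against 19.6% and 24.97% against 16.4%.

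Among all pairs the ratios of the samples differed most for TWIST1 with SNAI2 (0.898 and 1.26). As a ratio to the number expected, TBX3 was above 1 in both samples with PRRX1 (1.06 and 1.12) and TWIST1 (1.09 and 1.17). Without the pluripotent-gene cells these ratios were 1.04 and 1.06, and 1.07 and 1.10. With HAND1 the ratio was 1.02 and 1.08, and with HAND2 0.996 and 1.13. The pairs of TBX3 with PITX1 and SNAI2 are given as shares of cells. PITX1 was found in 59.0% of TBX3-positive and 59.3% of TBX3-negative cells of blastoid 3, but in 79.3% and 63.4% in blastoid 4, so that the samples differed. SNAI2 was found in 24.1% and 24.0% of these cells in blastoid 3 and in 21.4% and 21.3% in blastoid 4, and without the pluripotent-gene cells in 24.4% against 25.7% and 21.6% against 23.7%, with the sign turned. TWIST1 was found in 10.4% of HAND1-positive and 14.5% of HAND1-negative cells of blastoid 3 and in 12.1% and 11.9% in blastoid 4. Without the pluripotent-gene cells TWIST1 was less often found beside HAND1 in both samples, at 10.5% against 15.9% and 12.3% against 15.5%, with overlapping intervals in blastoid 4. In cells with amnion-like genes TBX3 was found in 38.9% of HAND1-positive (31.9% to 46.3%) and 32.3% of HAND1-negative cells (25.3% to 39.997%) of blastoid 3 and in 27.7% and 24.3% in blastoid 4, with overlapping intervals.

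**Figure D5:**
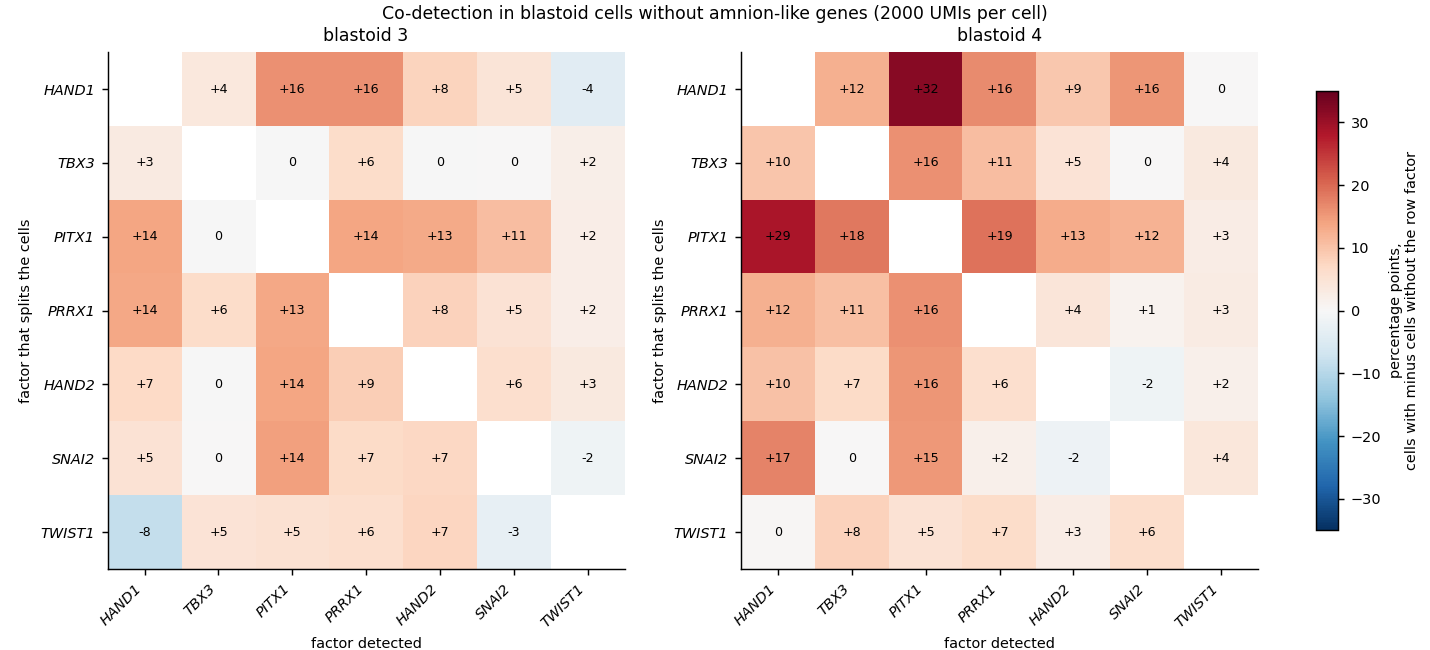
Co-detection among thinned blastoid cells without amnion-like genes, for blastoid 3 (left) and blastoid 4 (right). Each number is the share of cells with the column factor among cells with the row factor minus that among cells without it, in percentage points; the largest is PITX1 by HAND1 in blastoid 4, 78.0% against 46.1%.

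Genes most like each factor were ranked by Pearson correlation of log counts over the 2181 and 1909 thinned blastoid cells, among 5162 genes, and the 3 of highest mean r were named where r was at least 0.2 in both samples. These values share library, depth and cell mixture and are a description. HAND1 was most like TMEM88, a membrane protein known as an inhibitor of WNT signalling (r = 0.23 and 0.33), with PITX1 second in mean r. PITX1 was most like TMEM88 (0.21 and 0.40), PRRX1 (0.23 and 0.35) and CYB5A, a cytochrome b5 (0.21 and 0.33). PRRX1 was most like PITX1, CYB5A (0.26 and 0.27) and the ligand WNT5A (0.24 and 0.27), and HAND2 was most like the collagen COL3A1 (0.32 and 0.22) and PITX1 (0.22 and 0.25). No gene met the limit for TBX3, TWIST1 or SNAI2. Past the first 3, and named after their values were seen, the matrix genes COL3A1 (0.21 and 0.33) and LUM (0.20 and 0.34) and the factor HAND2 also reached 0.2 with PITX1, as did the matrix gene DCN with HAND2 (0.23 and 0.21).

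Paralogs, the nearest relatives of the factors, were lower in cells with amnion-like genes where they could be tested. Of 12 listed, 8 could be tested in cells with against cells without amnion-like genes and 8 were called lower (edgeR), with a median log2 fold change of -3.17 against -0.02 for all genes. In cells with amnion-like genes of blastoid 3, 5 of the 12 (PITX3, TBX4, TBX5, ISL2 and MEOX2) were at 0. A gene at 0 there needs the cells without amnion-like genes to pass the filter and could hardly be called higher. The count of calls therefore adds little. Over all genes tested 24.3% were lower and 25.8% higher in this split, and 23% lower and 27.3% higher in blastoids against stem cells, and the lists that follow can be read against these shares. TBX2, the nearest relative of TBX3, was at 1.85 against 15.8 CPM in blastoid 3 and 1.83 against 15.3 CPM in blastoid 4, a change of -3.06 ± 0.28 (SE, n = 2 samples, edgeR adjusted p 2.21e-08). Against the stem cells 7 of 10 tested paralogs were called higher and 2 lower, and SNAI1, a relative of SNAI2, changed by 2.46 ± 0.24 (SE, n = 2 per group).

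Among partners and inhibitors of basic helix-loop-helix factors, 4 of 7 were called higher and 2 lower in cells with amnion-like genes, where 25.8% and 24.3% of all genes were. ID1, an inhibitor and a known target of BMP signalling, was at 999 against 198 CPM in blastoid 3 and 1045 against 277 CPM in blastoid 4, a log2 fold change of 2.12 ± 0.07 (SE, n = 2 samples, edgeR adjusted p 1.36e-14). ID4 changed by 2.03 ± 0.10. The partners TCF12 and TCF4 changed less, by -0.43 ± 0.11 and -0.26 ± 0.07. In the blastoids against hESC, 4 were called higher and 1 lower, with ID2 up by 3.59 ± 0.19 and the partner TCF3 changed by -0.56 ± 0.13 (SE, n = 2 per group).

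The neighbouring noncoding genes moved with their factors. Of the 6 listed, 3 were tested and 3 were called lower in cells with amnion-like genes. HAND2-AS1, which overlaps HAND2, was at 4.44 against 43.1 CPM in blastoid 3 and 6.67 against 43.5 CPM in blastoid 4, a log2 fold change of -2.87 ± 0.18 (SE, n = 2 samples, edgeR adjusted p 9.85e-11). C5orf66, which overlaps PITX1, changed by -3.61 ± 0.32. Compared with the stem cells all 3 were called higher, HAND2-AS1 by 6.14 ± 0.31 (SE, n = 2 per group). The 6 listed summed to only 0.667 and 0.817 CPM in hESC 1 and hESC 2, so they could hardly be called lower.

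BMP signals act upstream of HAND1 and MSX genes in several tissues. Of 13 BMP pathway genes tested, 4 were called higher, a share near the 25.8% of all genes, and 7 lower, against 24.3% of all genes, in cells with amnion-like genes. The ligands moved apart: BMP4 was at 32.2 against 195 CPM in blastoid 3 and 35.7 against 202 CPM in blastoid 4 (-2.54 ± 0.09, edgeR adjusted p 3.06e-14), BMP2 changed by -2.58 ± 0.19 and BMP7 by 1.59 ± 0.11. MSX2 changed by 0.87 ± 0.08. Against the stem cells 11 of 13 were called higher and 1 lower, MSX2 by 8.65 ± 0.24, MSX1 by 7.87 ± 0.21 and the receptor BMPR1A by -0.57 ± 0.16 (SE, n = 2 per group).

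Among epithelial and mesenchymal genes, EPCAM and CDH1 moved opposite to ZEB1 and ZEB2. Of 8 tested, 3 were called higher and 5 lower in cells with amnion-like genes. EPCAM and CDH1 are the only epithelial genes of this list, so its mesenchymal genes did not all fall. ZEB1 and ZEB2, repressors of epithelial genes like SNAI2, changed by -4.63 ± 0.28 and -3.97 ± 0.15, and the epithelial genes EPCAM and CDH1 by 3.60 ± 0.08 and 2.73 ± 0.08 (SE, n = 2 samples). EPCAM was at 482 against 35.7 CPM in blastoid 3 and 460 against 42.1 CPM in blastoid 4 (edgeR adjusted p 5.24e-17). In the comparison with hESC 5 were called higher and 1, EPCAM, lower by a log2 fold change of -0.71 ± 0.22 (SE, n = 2 per group).

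Of 11 other lateral and cardiac mesoderm factors tested, 7 were called lower in cells with amnion-like genes, against 24.3% of all genes, and 3 higher, a share near the 25.8% of all genes. GATA6 changed by -2.53 ± 0.12 and TCF21 by -2.87 ± 0.20, while DLX5 changed by 3.60 ± 0.19 and MEIS1 by 1.51 ± 0.11 (SE, n = 2 samples). Against the stem cells 9 of 12 were called higher and 0 lower (edgeR), and 10 of the 14 listed, GATA6, MEIS2, MEIS1 and DLX5 among them, were missing from both hESC tables. Genes missing there could pass the filter only through the blastoids and could hardly be called lower. The count of these calls therefore adds little.

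Markers of other cell types that use the same factors differed in level. The limb and skeletal mesenchyme list (PRRX1, TBX4, TBX5, HOXA13, SOX9 and RUNX2) summed to 72.5 and 63.1 CPM in cells with and 560 and 460 CPM in cells without amnion-like genes of blastoid 3 and blastoid 4, against 7.04 and 7.35 CPM in the stem cells. PRRX1, itself one of the factors, made up 491 and 409 CPM of the sums without amnion-like genes. TBX5 was at 0 in cells with them in both blastoids. The 6 endothelium genes summed to 50.2 and 48.0 CPM with and 198 and 177 CPM without amnion-like genes, against 103 and 97.7 CPM in the stem cells. The 6 cardiac muscle genes summed to 32.6 and 48.2 CPM in cells with and 79.2 and 91.7 CPM in cells without amnion-like genes. The 6 nascent mesoderm genes summed to 6.59 and 7.17 CPM with them and 87.7 and 43.3 CPM without them. The 6 neural crest genes, where TWIST1 and SNAI2 are also known, summed to 82.4 and 69.4 CPM with them and 106 and 72.5 CPM without them, with FOXD3 at 0 in blastoid 3, against 61.9 and 60.9 CPM in the stem cells. The part of these cells in the factor levels was not tested.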

How the data were processed

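For every sample the authors deposited raw UMI counts (genes by symbol in rows, barcodes in columns). The tables come from 10x Genomics Chromium 3′ libraries and, per the submitters' processing notes, from Cell Ranger with GRCh38. The version and the annotation are not given in the sources used here. The deposited barcodes had at most 20% mitochondrial UMIs. Genes that a table does not list were set to 0 counts in it.

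The 10 factors and all gene lists were chosen with earlier results of these data known. Cells with at least 500 genes were kept, 9680 in all. Scrublet (scanpy 1.11.5, expected rate 6%) called 73 of them (0.754%) as doublets, which were left in and removed in an alternative. A share this low means that many doublets may have gone uncalled.

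Cells are not replicates, so counts were summed per sample, or per blastoid sample and set. The test was the quasi-likelihood test of edgeR 4.0.16 (TMM scaling, filterByExpr, Benjamini-Hochberg adjustment over all genes tested) and called at an adjusted p under 0.05. The comparison of cells with and without amnion-like genes had the sample as a term. CPM uses TMM library sizes in these comparisons. Both scripts were tested on simulated data. Shares of cells were taken after thinning to 2000 UMIs, with exact Clopper-Pearson 95% intervals. Factors were named always. Of each list, at most 2 called genes per direction were named, those with the largest change at a mean log2 CPM of at least 3; a gene that met this rule is not reported here. Alternatives changed scaling, filter, tool (DESeq2 1.42.0), thinning, set limits, doublets and samples. With 2 samples against 2 an exact permutation test cannot pass 0.05, so shares and co-detection were described without a test.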

Additional observations from a re-analysis of the deposited data

Results flagged for a closer look

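UMIs of the factors also appeared in barcodes with fewer than 500 genes, which the comparisons left out. In blastoid 3, 505 of 1198 such barcodes (42.2%, exact 95% interval 39.3% to 45.01%) held at least 1 UMI of the 10 factors, 818 UMIs in all, of which 283 were of HAND1. In blastoid 4 the share was 34.2% (25.8% to 43.4%), from 41 of 120 barcodes. In the stem cell samples it was 0.0272% of 3676 and 0.0227% of 4400 barcodes, 1 barcode each. The median depth of these barcodes was 346 UMIs in blastoid 3 and 411.5 UMIs in blastoid 4, against 350 and 373.5 UMIs in the stem cell samples. Of the barcodes in blastoid 3, 1035 also occurred as kept cells of blastoid 4. The source of these UMIs was not tested.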

How the results depend on the processing

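Of the 10 factors, 9 to 10 were called higher in the blastoids under all 12 alternatives of that comparison, and 108 of 108 fold changes of single factors kept their direction and call. With almost no stem cell counts of these factors, the direction could hardly turn. In cells with against cells without amnion-like genes, 9 factors were called, and 8 of them lower, under each alternative with a test except without the replicate block, where 7 were called and 6 lower: HAND1 (-0.65, edgeR adjusted p 0.0508) and TBX3 (-0.54, adjusted p 0.0969) lost the call, and all genes called fell to 4311 from 7440. The DESeq2 Wald test called 3630. Leaving out each sample in turn moved the genes called between stem cells and blastoids from 8227 to between 4424 and 10033, the lowest without hESC 1 and 5038 without hESC 2, where the lone sample is assumed to vary like the other group. With library size only, 3004 genes were higher and 4793 lower with amnion-like genes, a share of 38.5% higher against 51.5%, and the median moved from -0.02 to -0.15. Against the stem cells that share moved from 54.3% to 63.1% and the median from 0.05 to 0.19. Without blastoid 3 or blastoid 4 the split by amnion-like genes gives values with no test. TBX3 was then at -0.78 and -0.34, and PITX1 at -4.26 and -5.17. Of 80 differences in detection 34 moved by more than the spread between samples, and of 84 co-detection ratios also 34. The cause of these changes was not tested. No paired analysis was possible because the stem cell and blastoid samples share no number; the split by amnion-like genes was paired within each sample, since both sets come from the same library. Alternatives without shared barcodes, and those of detection and co-detection without pluripotent-gene cells, were chosen after seeing the data. Depth limits MEOX1, with 23 UMIs, and the thinned shares of ISL1 and FOXF1.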
